A study of Canis lupus familiaris with 77 samples.

Results

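The miRNAs described here were miR-219 and miR-338, both known from the glial cells that make myelin. Reads were taken from every row of the deposited table whose name, read up to the first separator, was cfa-miR-219-3p, cfa-miR-219-5p, cfa-miR-338 or hsa-miR-338-5p. These 4 names gave 5 of the 650 miRNA rows with at least 1 read, since cfa-miR-219-5p had 2 rows. The samples were tissues of untreated, 10-month-old male beagle dogs that had been perfused with phosphate buffered saline before collection, measured by miR-seq, which sequences RNA of miRNA length. A library was available for 5 brain samples, 2 sciatic nerve samples, 4 colon samples and 5 samples each of bone marrow, duodenum, heart, ileum, jejunum, kidney, liver, lung, pancreas, plasma, skeletal muscle (quadriceps), testis and thymus, 76 libraries of 16 tissues in all. The study's methods give 5 dogs for all tissues, so the libraries of different tissues share animals, and no test here took that into account. The methods name the nerve samples as replicates of 1 pool, while the study's results name 2 single samples beside a pool. The spread between the 2 nerve libraries may therefore be technical. The brain region was not given. Each brain and nerve sample was a piece of whole tissue, so fewer cells of a type and less RNA per cell cannot be told apart.

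Each miRNA hairpin is cut into 2 arms, named 5p and 3p, and either arm or both can be loaded to repress messenger RNAs. In the central nervous system myelin is made by oligodendrocytes, and in peripheral nerves such as the sciatic nerve by Schwann cells. miR-219 and miR-338 are known from studies of oligodendrocytes, where they accumulate as precursors mature and repress messenger RNAs that keep the precursor state. miR-338 lies within AATK, a kinase gene of neural tissue, and in RefSeq genes of the dog assembly UU_Cfam_GSD_1.0, which is not the build of the reads, MIR338 was also placed within the span of AATK. In the same table MIR219-1 lay between HSD17B8 and RING1, and MIR219-2 between LOC102156797 and URM1.

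The rows were not all single miRNAs. The cfa-miR-219-3p row, the 3p arm of the miR-219-2 hairpin by its human name, also listed miR-219b, a miRNA of the same locus. One cfa-miR-219-5p row listed miR-219b as well and is called the miR-219-5p/miR-219b row, and the second listed no miR-219b and is called the miR-219-5p-only row. The cfa-miR-338 row, the 3p arm of miR-338, and the hsa-miR-338-5p row each listed an arm of miR-3065, a miRNA of the same locus. Reads of these overlapping miRNAs cannot be told apart within a row. Both cfa-miR-219-5p rows listed the same dog, human and rat names of miR-219-5p, so they are not shown to be separate miRNAs. How the counting divided miR-219-5p reads between the 2 rows is not given in the sources used here.

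Values are in RPM, the reads of a row per 1000000 reads on miRNAs in that library. The libraries held 157871 to 7896424 such reads (median 1364823), those of brain 785857 to 3217077 and those of sciatic nerve 971311 and 1164212. A count of 0 allows up to 3 reads, which is 0.380 to 19.0 RPM by library and on average 2.83 RPM in sciatic nerve, and this covers counting error only. All 6 miRNAs of a neuron marker list (miR-9, miR-124, miR-128, miR-132, miR-137 and miR-153) were higher in brain than in sciatic nerve by edgeR's quasi-likelihood test, under all 3 scalings tried. In the main fit 22.5% of the 386 miRNAs tested were higher in brain and 23.6% were lower. The call of miR-137 was near the threshold (edgeR adjusted p = 0.0447). Brain library 3, at 0.982 RPM of miR-137, lay within the nerve values of 0 and 1.72 RPM. The neuron-specific miR-124 was at 2067 to 4574 RPM in brain and at 0.859 and 2.06 RPM in nerve. All 4 smooth muscle and fibroblast miRNAs (miR-143, miR-145, miR-199 and miR-214) were lower in brain, 2 of them also when libraries were scaled by size alone. The sciatic nerve libraries differed in skeletal muscle miRNAs (miR-1, miR-133a and miR-206), which summed to 1958 RPM in library 1 and 106 RPM in library 2. The 3 miRNAs summed to 690 to 112138 RPM in skeletal muscle itself.

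cfa-miR-219-3p was read almost only in brain. The 5 brain libraries held 186, 276, 144.9, 712 and 1435 RPM (mean 551 ± 544, SD, n = 5). Every brain library was above every library of every other tissue, but the brain libraries themselves differed by 9.91-fold, with libraries 4 and 5 far above the other 3. Both sciatic nerve libraries held 0 reads. In the 71 libraries outside brain there were 17 reads in all, spread over 14 libraries, and the highest was a liver library with 4 reads (1.54 RPM). Brain held 5684 reads, 99.7% of the cfa-miR-219-3p reads in the 76 libraries. A pooled nerve sample that could not be mapped to a label was not used, so its reads are not counted here.

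The study defines a tissue enriched miRNA by a mean over 5 times that of all other samples together with an adjusted p under 0.05, tested here with an exact rank-sum test (two-sided) and adjusted by Benjamini-Hochberg over the 650 miRNAs of a tissue. In brain 188 miRNAs met these criteria (28.9%), and 4 of the 5 miR-219 and miR-338 rows were among them. The study itself reports fewer enriched miRNAs in brain. By a stricter criterion it already lists cfa-miR-219-3p as enriched in brain, with a median of 276 RPM. The ratio of that median to the highest value outside brain is smaller in the study's list than the 179 of the 76 libraries used here. The study also sets apart miRNAs above 100 RPM in some tissue, a level that was not required here. For cfa-miR-219-3p the mean in brain was 4279 times that outside brain (exact rank-sum test, adjusted p = 8.28e-07, from the smallest p that 5 against 71 libraries allow, 1.08e-07). The divisor of that fold is small. The pooled level outside brain was 0.146 RPM with an exact Poisson interval of 0.0848 to 0.233 RPM (95%), and the pooled brain level was 2483 to 6826 times it. These bounds cover counting error outside brain only. They take the brain level as exact, although the brain libraries differed by 9.91-fold.

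**Figure D1:**
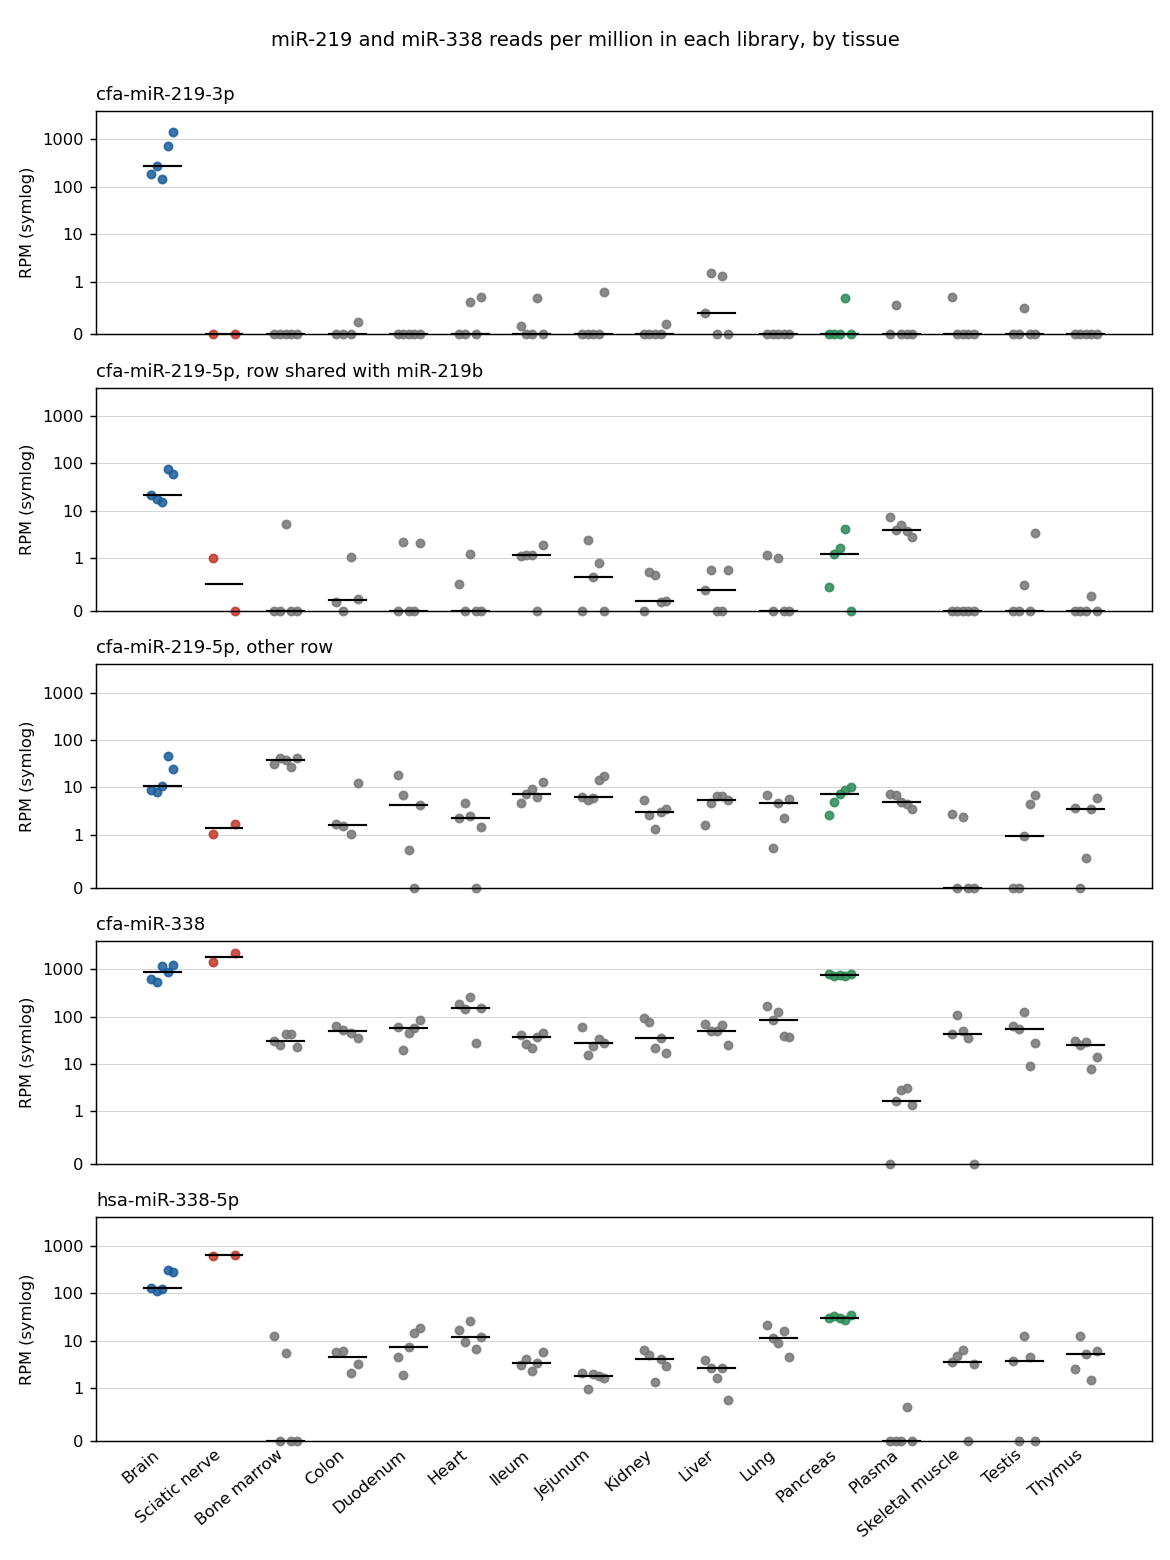
RPM of the 5 rows in each of the 76 libraries, by tissue, on axes that are linear up to 1 RPM and logarithmic above it. Each dot is a library and each bar the tissue median. cfa-miR-219-3p stands at 144.9 to 1435 RPM in brain and at no more than 1.54 RPM elsewhere, while cfa-miR-338 is also high in sciatic nerve and pancreas.

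The 5p arm of miR-219 was less abundant than the 3p arm in brain, and its 2 rows had different tissue patterns. In brain the miR-219-5p/miR-219b row was at 21.6, 17.7, 15.2, 77.9 and 59.5 RPM (38.4 ± 28.5, SD, n = 5). As for the 3p arm, brain libraries 4 and 5 were the highest. All 5 brain libraries were above all others, the nearest tissue being plasma with 2.77 to 7.28 RPM (4.58 ± 1.71, n = 5, on 26 reads). The row was tissue enriched in brain, with a mean 42.7 times that of the other samples (exact rank-sum test, adjusted p = 8.28e-07). In skeletal muscle no library had a read.

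The miR-219-5p-only row was found in most tissues. Brain held 8.91, 8.08, 10.8, 46.1 and 24.3 RPM (19.6 ± 16.2, SD, n = 5), and bone marrow had the highest mean, 35.7 ± 6.78 RPM (range 26.4 to 41.8). These 2 tissues overlapped, and the bone marrow values rested on 36 reads in 5 shallow libraries, in which 3 reads are worth up to 18.5 RPM. The row was tissue enriched in bone marrow, as were 18 miRNAs there (2.77%), with a mean 6.29 times that of all other samples (exact rank-sum test, adjusted p = 6.08e-05). It was not in brain, where the fold was 2.89 although the ranks differed (exact rank-sum test, adjusted p = 0.00557). Jejunum (9.90 ± 5.64 RPM), ileum (8.14 ± 3.33) and pancreas (6.89 ± 3.07) followed in the order of means, and from the top to the bottom of that order every tissue overlapped its neighbour.

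Of the miR-219-5p reads in brain, 357 of 536 lay on the miR-219-5p/miR-219b row, 66.6% with a Wilson 95% interval of 62.5% to 70.5% that covers counting error only, and the single brain libraries ranged from 58.5% to 71.0%. Outside brain 97 of 659 did, 14.7% (12.2% to 17.6%), and single tissues differed, with 1 of 37 in bone marrow, 2.70% (0.479% to 13.8%), and 26 of 59 in plasma, 44.1% (32.2% to 56.7%). Whether the difference between the rows came from the loci or from how reads were divided between the rows was not tested.

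Within brain the 3p arm had 6.08, 10.7, 5.57, 5.74 and 17.1 reads for each read on both 5p rows. The 3p arm was the more abundant in all 5 libraries, most of all in library 5. The 3p arm of the first miR-219 hairpin, hsa-miR-219a-1-3p, has a row of its own and showed no such pattern. It was at 9.34 ± 3.72 RPM in brain (n = 5) and at 16.5 and 12.9 RPM in sciatic nerve. Nerve had the highest tissue mean, overlapping brain, and the row was lower in brain than in nerve by edgeR (adjusted p = 0.0453). That call lies near the threshold, and other scalings and left-out libraries were not examined for it. The row was added after its values were seen. Brain was not tissue enriched for hsa-miR-219a-1-3p (1.59-fold, exact rank-sum test, adjusted p = 0.0947).

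miR-338 was high in both myelinated tissues, and the sciatic nerve was the higher of the 2 for each arm. cfa-miR-338, the 3p arm, was at 1424 and 2199 RPM in sciatic nerve (mean 1811 ± 548, SD, n = 2). Brain held 621, 544, 1159, 879 and 1236 RPM (888 ± 310, n = 5), all below both nerve libraries. Pancreas followed with 708 to 799 RPM (755 ± 44.3, n = 5), a range that lay inside that of brain. Heart was next at 153.4 ± 84.2 RPM, no library of which reached the pancreas, then lung at 90.4 ± 55.8 RPM. From heart to thymus every tissue overlapped its neighbour in the order, and plasma was lowest at 1.83 ± 1.28 RPM on 14 reads.

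hsa-miR-338-5p separated the same tissues more widely. Sciatic nerve was at 606 and 651 RPM (629 ± 31.6, n = 2). Brain held 127, 113, 121, 303 and 283 RPM (189 ± 94.8, n = 5), again with libraries 4 and 5 the highest. Pancreas was at 26.8 to 35.5 RPM (31.1 ± 3.42, n = 5). Nerve, brain, pancreas and heart did not overlap at any of these 3 steps, heart being at 6.53 to 26.1 RPM (14.3 ± 7.68). Bone marrow held 3 reads and plasma 1 read in 5 libraries each, both within the limit that a count of 0 allows per library.

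Both miR-338 rows were tissue enriched in brain, although sciatic nerve was among the samples brain was set against. The fold was 5.88 for cfa-miR-338 (exact rank-sum test, adjusted p = 0.000428) and 7.67 for hsa-miR-338-5p (adjusted p = 5.00e-05). Scaling the libraries by TMM in place of their totals took both folds below 5, to 3.27 and 4.59. In pancreas cfa-miR-338 fell short of the fold criterion at 4.71 (exact rank-sum test, adjusted p = 0.00381), beside 27 miRNAs that met both criteria there (4.15%).

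In sciatic nerve the mean was 11.6 times that of all other samples for cfa-miR-338 and 32.2 times for hsa-miR-338-5p, whose fold was the largest of all 650 miRNAs in nerve. Both had the smallest p that 2 against 74 libraries allow, 0.000702, which after adjustment was 0.0507 in the exact rank-sum test. None of the 650 miRNAs was called in nerve (0.00%), although 109 had an unadjusted p under 0.05 and 16 a fold over 5. With the p summed over all arrangements as far from the expected rank sum, 5 were called, hsa-miR-338-5p among them (adjusted p = 0.0456). With brain left out of the comparison, both rows were called, at 17.6 and 87.5 times the remaining samples (exact rank-sum test, adjusted p = 0.0138). Leaving brain out could not raise their ranks, which were already the highest. The adjusted p fell because more of the other miRNAs then had a small p, and the closing section gives the number called.

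The comparison with tissues that have little myelin was also made on counts, with brain or nerve set against the mean of the 14 other tissues in 1 edgeR fit over all 76 libraries. The 2 contrasts share those 14 tissues and are given side by side. In brain 5 of the 5 rows were higher, beside 45.0% of the 480 miRNAs tested (28.8% were lower), so a higher value in brain was common. RLE size factors gave 254 higher and 91 lower and library size alone 270 and 70, as the median log2 fold change of all miRNAs tested moved from 0.14 to 0.84 and 1.21. Adjusted p (edgeR quasi-likelihood test, Benjamini-Hochberg) was 3.07e-35 for cfa-miR-219-3p, 3.70e-21 for the miR-219-5p/miR-219b row and 0.0137 for the miR-219-5p-only row. The last was lost when brain library 4 (adjusted p = 0.210 by edgeR) or 5 (0.161) was left out. For cfa-miR-338 the log2 fold change was 3.17 ± 0.28 (SE, edgeR adjusted p = 2.19e-16), which was 3.03 above that median and between 3.003 and 3.07 above it with the other scalings. For hsa-miR-338-5p edgeR's adjusted p was 3.20e-24. No fitted fold change is given for the other rows, since at least 1 of the 14 tissues had no library above 3 reads.

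In sciatic nerve 2 of the 5 rows were higher than in the 14 tissues, where 26.7% of the miRNAs tested were, and 1 was lower, where 15.2% were. Library size alone gave 148 higher and 45 lower of the 480. cfa-miR-338 had a log2 fold change of 4.83 ± 0.34 (SE, edgeR adjusted p = 1.13e-19), and hsa-miR-338-5p had an adjusted p of 6.87e-31. The row that was lower was the miR-219-5p-only row (edgeR adjusted p = 0.0474), on 3 reads in nerve, and that call was lost in 6 of the alternatives given in the closing section. cfa-miR-219-3p and the miR-219-5p/miR-219b row had 0 and 1 reads in nerve. For each of them at least 1 of the 14 tissues, such as lung and skeletal muscle in that order, had no read in any library. The mean of the 14 tissues then has no lower limit in the fit, so this contrast could not call nerve lower for these rows.

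Brain and sciatic nerve were then compared directly, 5 libraries against 2, in an edgeR fit of their own over 386 miRNAs. Both miR-338 rows were lower in brain, and cfa-miR-219-3p and the miR-219-5p/miR-219b row were higher. Of the 5 rows 2 were higher in brain, where 22.5% of the miRNAs tested were, and 2 were lower, where 23.6% were. Neither share of the background is small, since the 2 tissues differed in many miRNAs. cfa-miR-219-3p was at least 194-fold higher in brain than the 2.83 RPM that 3 reads are worth in nerve (edgeR adjusted p = 0.00642), and even the lowest brain library was at least 51.1-fold higher. The miR-219-5p/miR-219b row had 1 read in nerve (1.03 RPM in library 1), and the brain mean was 82.0 times the pooled nerve level with a counting interval of 14.7 to 3239 (edgeR adjusted p = 0.0143).

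The miR-219-5p-only row had 3 reads in nerve, at 1.03 and 1.72 RPM. The ratio of the brain mean to the pooled nerve level was 13.98, with a counting interval of 4.78 to 67.8, but the difference missed the threshold (edgeR adjusted p = 0.0694). All 5 brain libraries were above both nerve libraries. The test passed with DESeq2 (adjusted p = 0.0497), with library size alone (0.0198), with all tissues in 1 edgeR fit (0.00723) and without brain library 2 (0.0427). With RLE size factors it still missed the threshold, and the closing section gives the range with each library left out, which also holds values that missed it.

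cfa-miR-338 was lower in brain than in sciatic nerve by 2.05 on the log2 scale, log2 fold change -2.05 ± 0.59 (SE; 95% interval -3.39 to -0.72, edgeR adjusted p = 0.0191). hsa-miR-338-5p had a log2 fold change of -2.81 ± 0.55 (interval -4.07 to -1.54, edgeR adjusted p = 0.00423). The size depends on the scaling, because the median of all miRNAs tested was itself 0.51 with TMM, 0.47 with RLE size factors and 1.68 with library size alone. Relative to that median cfa-miR-338 was at -2.56, -2.56 and -2.71 and hsa-miR-338-5p at -3.31, -3.33 and -3.41. On the scale of library size alone, which is that of RPM, the fold changes were -1.03 and -1.73, and cfa-miR-338 missed the threshold (edgeR adjusted p = 0.0781). That scaling also changed the split of all calls, from 87 higher and 91 lower to 165 higher and 39 lower.

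With only 2 nerve libraries, each of them decided part of these calls. Without nerve library 2, edgeR's adjusted p was 0.297 for cfa-miR-338, 0.0585 for hsa-miR-338-5p and 0.0815 for the miR-219-5p/miR-219b row. Without nerve library 1, the library with the higher skeletal muscle miRNAs, it was 0.0664, 0.0310 and 0.0573 in the same order. The calls of all miRNAs fell to 42 higher and 48 lower without library 1, and the lower calls to 43 without library 2. cfa-miR-219-3p was called in both. The 2 libraries differed by less in hsa-miR-338-5p (606 and 651 RPM) than in cfa-miR-338 (1424 and 2199 RPM), and the library with more muscle miRNA held less of both. Skeletal muscle itself held 47.6 ± 39.8 RPM of cfa-miR-338 and 3.56 ± 2.37 RPM of hsa-miR-338-5p. The part of muscle RNA in the difference between the nerve libraries was not tested.

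**Figure D2:**
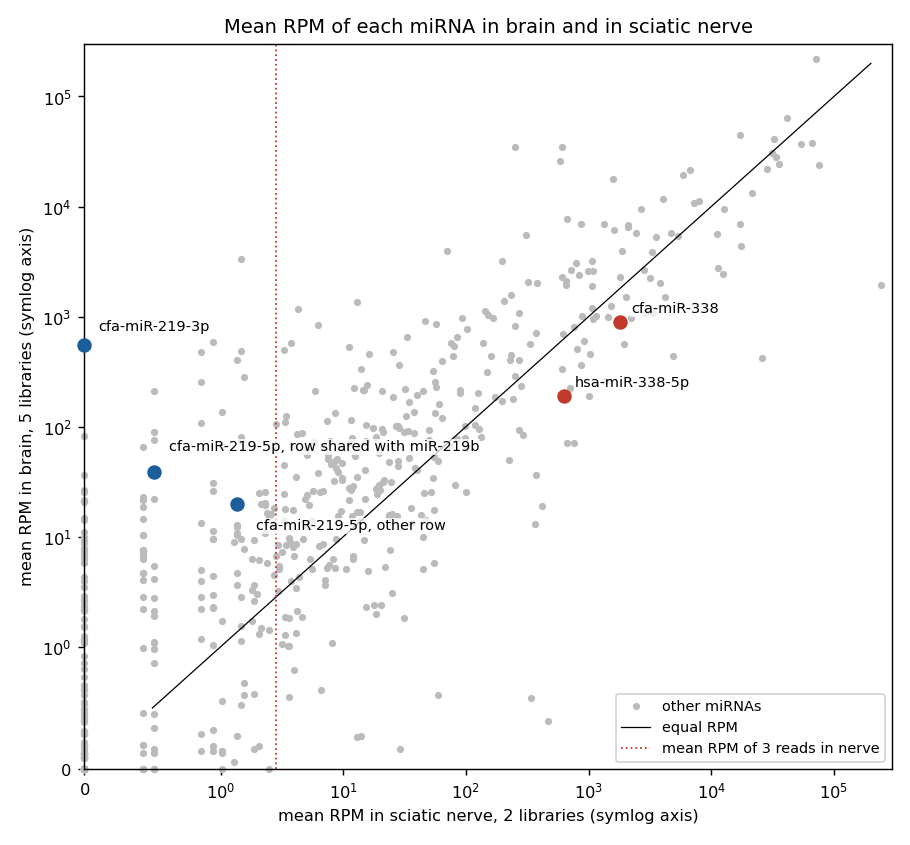
Mean RPM of each miRNA row in brain (5 libraries, vertical) and sciatic nerve (2 libraries, horizontal), on axes linear up to 1 RPM and logarithmic above it; the solid line marks equal RPM and the dotted line the 2.83 RPM that 3 reads are worth in nerve. The 3 miR-219 rows (blue) lie left of the dotted line and the 2 miR-338 rows (red) below the line of equal RPM, with cfa-miR-338 at 888 against 1811 RPM.

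Ratios within a library do not depend on the scaling. Reads of cfa-miR-219-5p (both rows, with 1 read added to each count) were 0.0558 times those of cfa-miR-338 in brain as a geometric mean and 0.00159 times in nerve, a log2 difference of 5.13. The 5 brain libraries were all above both nerve libraries, which gives the smallest p that 5 against 2 libraries allow in a two-sided exact permutation test, 0.0952 (0.143 adjusted over 3 ratio tests). This design cannot reach 0.05. For the arms of miR-219 the same test gave 0.0952, but the nerve side rested on 0 reads of the 3p arm and 2 reads of the 5p arm in each library and says little.

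The 2 arms of miR-338 were closest to equal in nerve, whose pooled ratio of 3p to 5p reads, 2.93, was the lowest of the 16 tissues. The 3p arm had 2.35 and 3.38 reads for each 5p read in sciatic nerve. In brain the ratio was 4.88, 4.81, 9.55, 2.90 and 4.37, which overlapped nerve in library 4. The log2 difference between brain and nerve was 0.80 (two-sided exact permutation test, p = 0.190). Brain library 3 stood out by its high 3p arm, 1159 RPM, beside a 5p arm of 121 RPM.

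Pancreas, as rich in the 3p arm as brain, had far less of the 5p arm. Its ratios ran from 21.3 to 27.1 with a median of 25.1, and no brain or nerve library came near them. As geometric means the ratio was 4.87 times that in brain and 8.47 times that in nerve. Pancreas was set beside them after these values were seen, so no test is given. In heart, which has the next highest cfa-miR-338, the 3 libraries with at least 10 reads of the 5p arm had ratios of 10 to 12.4, in duodenum the 3 such libraries had 3.84 to 6.20, and in kidney 3 had 5.93 to 15.9. Liver (pooled ratio 19.9, on 21 reads of the 5p arm) and jejunum (17.5, on 14 reads) came closer to pancreas, at far lower levels of both arms.

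**Figure D3:**
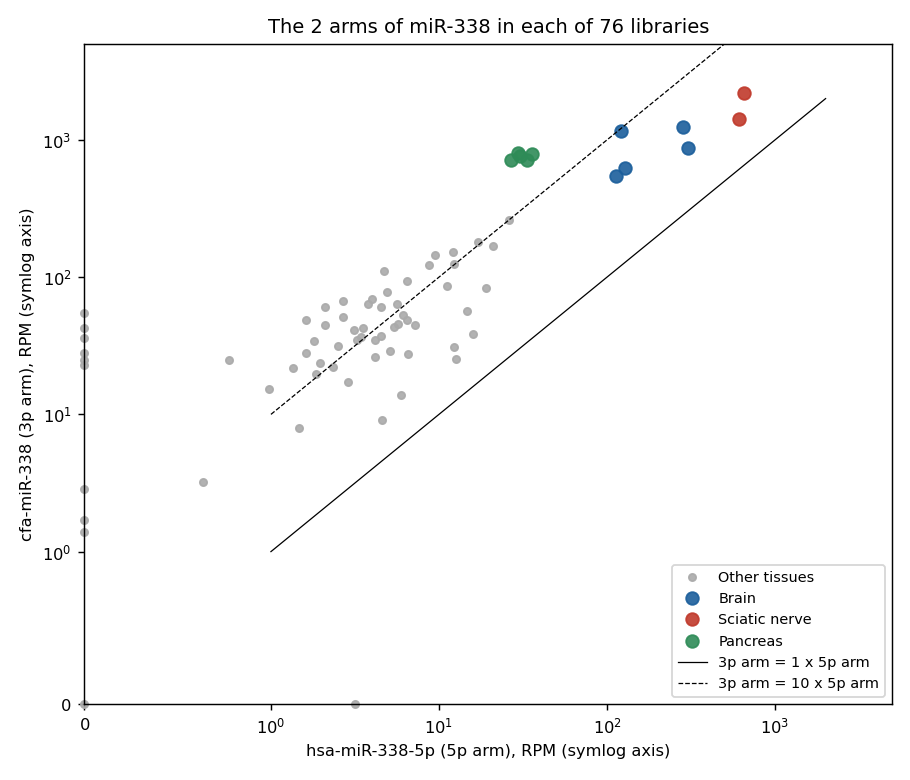
RPM of the 5p arm (horizontal) and 3p arm (vertical) of miR-338 in each of the 76 libraries, on axes linear up to 1 RPM and logarithmic above it, with lines where the 3p arm equals the 5p arm and where it is 10 times as high. The 5 pancreas libraries (green) lie at the height of the brain libraries (blue) but at 26.8 to 35.5 RPM of the 5p arm, and the 2 nerve libraries (red) are farthest right.

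The brain libraries differed in the miR-219 rows more than in most miRNAs, and in cfa-miR-338 less. Among the 316 miRNAs with a median of at least 10 RPM in brain, the median coefficient of variation over the 5 libraries was 46.6%. It was 98.7% for cfa-miR-219-3p, the 15th highest, 82.4% for the miR-219-5p-only row, 74.3% for the miR-219-5p/miR-219b row, 50.0% for hsa-miR-338-5p and 34.9% for cfa-miR-338. Libraries 4 and 5 were the 2 highest in all 3 miR-219 rows and in hsa-miR-338-5p, whereas the highest libraries for cfa-miR-338 were 5 and 3. By Dixon's criterion no library stood apart in any of the 22 groups of a row and a tissue that could be tested.

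The neuron markers did not follow that order. Library 5, with the most cfa-miR-219-3p, was the lowest of the 5 in miR-124 (2067 RPM), miR-128 (18666 RPM), miR-153 (210 RPM) and miR-9 (21762 RPM). Library 4, with the most miR-219-5p, was the highest in miR-124 (4574 RPM) and miR-137 (238 RPM). Library 3, with the least cfa-miR-219-3p, held 486 RPM of miR-132 and 0.982 RPM of miR-137, against at least 2220 and 34.8 RPM in the other 4. The sampled region of each brain is not given, and its part in these differences was not tested.

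**Figure D4:**
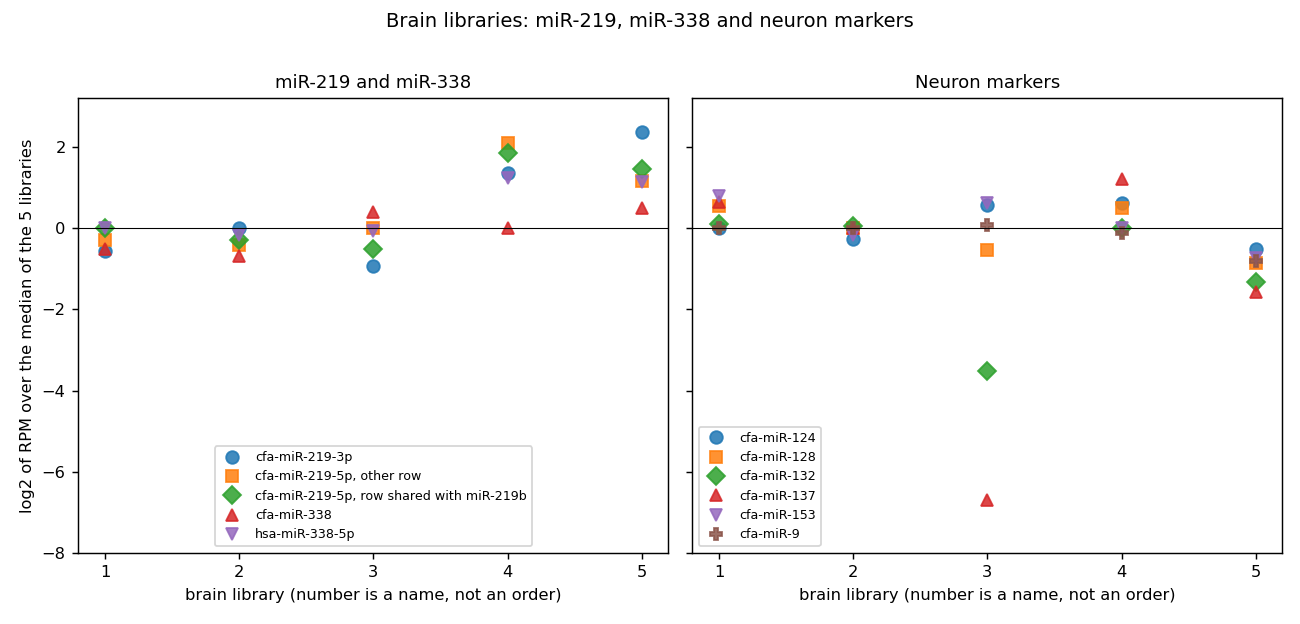
log2 of RPM over the median of the 5 brain libraries for the miR-219 and miR-338 rows (left) and 6 neuron markers (right), 1 point per library, whose numbers are names only. The 3 miR-219 rows and hsa-miR-338-5p lie above 1 in libraries 4 and 5, while the 6 neuron markers lie below 0 in library 5.

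Other miRNAs that have been studied in myelinating glia (miR-7, miR-23a, miR-29a, miR-34a, miR-125a, miR-138, miR-140, miR-204 and miR-211, all arms) were described as a list of 19 rows, 16 of them tested between brain and nerve. By edgeR 3 were higher in brain (miR-138a, miR-7 and miR-7-1-3p) and 3 lower (miR-23a, miR-34a and miR-140), beside 22.5% and 23.6% of all miRNAs. With library size alone these counts became 9 and 1. The median log2 fold change was 0.50, and over all miRNAs tested it was 0.51. On RPM, with the nerve level held at 3 reads for the rows at or below it, the medians were 1.55 and 1.44. miR-138a, known from oligodendrocyte and Schwann cell maturation, was at 1206 to 9317 RPM in brain and 290 and 327 RPM in nerve (edgeR adjusted p = 0.00642). miR-23a, known from oligodendrocytes as a repressor of lamin B1, was at 117 to 414 RPM in brain and 1001 and 1732 RPM in nerve (edgeR adjusted p = 0.00011). Against the 14 other tissues 11 of 17 were higher and 3 lower in brain, beside 45.0% and 28.8% of all miRNAs, and 8 of 17 were higher and 3 lower in nerve, beside 26.7% and 15.2%. With library size alone the counts in brain were 13 higher and 1 lower, and miR-140 turned from lower to higher.

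The miRNAs with the most similar tissue pattern were found by Pearson's r of log2(mean RPM + 1) over the 16 tissue means, among 436 miRNAs with a highest tissue mean of at least 10 RPM. These are descriptions, since all points come from the same libraries. cfa-miR-219-3p was most like miR-448 (r = 0.996), miR-935 (0.987) and miR-1264 (0.986), whose brain means were 20.9, 135 and 18.6 RPM with no more than 1.03 RPM in nerve. The highest mean of cfa-miR-219-3p outside brain was 0.655 RPM, in liver, so these r rest mainly on the brain point. Spearman's rho gave other miRNAs, as stated in the closing section. The miR-219-5p/miR-219b row was most like miR-1296 (0.925), miR-448 (0.891) and cfa-miR-219-3p (0.887). The miR-219-5p-only row was most like miR-7 (0.831), miR-425-3p (0.818) and miR-98 (0.795), and its r with cfa-miR-219-3p was 0.43.

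The 2 arms of miR-338 were each other's nearest, with r = 0.924. Next for cfa-miR-338 came miR-125b (0.780) and miR-125a (0.776), and for hsa-miR-338-5p miR-377 (0.819) and miR-125b-1-3p (0.817). Of these miR-125b-1-3p was also higher in sciatic nerve (603 RPM) than in brain (335 RPM) by its means. The r between cfa-miR-219-3p and the miR-338 arms was 0.42 for the 3p arm and 0.47 for the 5p arm, and between the miR-219-5p-only row and both arms it was -0.05 and -0.06.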

How the data were processed

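Small RNA libraries of 16 dog tissues were analysed, 76 with a labelled tissue. Of the 77 labelled samples, 1 colon sample had no values, and 1 of the 77 sample names in the table, a pooled nerve sample by its name, could not be mapped to a label and was not used. The labels give no dog number, and the study's methods name 5 dogs for all tissues, so tissues share animals that the tests treat as independent. The study's methods describe the nerve samples as replicates of 1 pool, and its results as 2 single samples beside a pool. The unmapped pooled name beside 2 labelled nerve samples matches the second description. The labels do not settle whether the 2 nerve libraries are from separate dogs. The p-values then measure only the spread between these samples, which may be technical. No 2 libraries of a tissue agreed within sampling noise (147 pairs, lowest chi-square per degree of freedom 10.3).

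To make the deposited counts, the authors clipped adaptors, aligned reads without mismatches to CanFam3.1 (named in the submitters' processing notes), dropped reads at more than 10 locations and counted reads that overlapped at least 70% of a dog, rat or human miRNA locus. The deposited RPM are counts scaled to 1000000 of the deposited total of reads on miRNAs, and a score column by the authors, the highest RPM of a miRNA, was not used in any test. Dividing counts by totals gave the deposited RPM back to within a relative 2.89e-09. A miRNA that a library does not list was set to 0 reads.

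Counts were tested by the quasi-likelihood test of edgeR 4.0.16 (filterByExpr, TMM, Benjamini-Hochberg over all miRNAs tested, threshold 0.05) in R 4.3.3. DESeq2 1.42.0 was an alternative. Exact rank-sum and permutation tests were two-sided, as 2 times the smaller tail, in Python 3.11.15 (scipy 1.17.1, numpy 2.4.6, pandas 2.3.3; figures with matplotlib 3.10.9). Where a group had no more than 3 reads in any library, folds were taken against 3 reads or given with an exact Poisson interval (95%), and no fitted fold is given. The procedures were tested on simulated data. The miRNAs, lists and tests were chosen with earlier results of these data known. Named miRNAs are the 5 rows, the 3 most like each, and members of the marker and glia lists. hsa-miR-219a-1-3p and the comparison with pancreas were added after values were seen. Alternatives covered scaling, tool, filters, pseudocounts, the reference of the fold, the adjustment and each library left out.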

Additional observations from a re-analysis of the deposited data

How the results depend on the processing

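No paired analysis was made, because the labels give no dog number and the replicate numbers follow accession order. Over 346 recomputed values of the 5 rows, counts of calls, ratios and similar miRNAs (list members not included) none reversed a call, 299 stayed within the same call or within 1.5 times the count, and the others are given here. The causes were not tested except where fewer libraries or miRNAs entered. Beyond the values in the report, brain against sciatic nerve gave 165 miRNAs higher and 39 lower with library size alone, with adjusted p of 0.0781 for cfa-miR-338 and 0.0198 for the miR-219-5p-only row, which reached 0.0497 with DESeq2 and 0.00723 with all tissues in 1 fit. Leaving out each library in turn gave 42 to 121 higher and 43 to 111 lower, and adjusted p of 0.0427 to 0.249 (miR-219-5p-only row), 0.0119 to 0.0815 (miR-219-5p/miR-219b row), 0.00973 to 0.297 (cfa-miR-338) and 0.00159 to 0.0585 (hsa-miR-338-5p). A nerve left with 1 library was assumed to vary like brain. Against the 14 other tissues, the miRNAs lower in brain fell to 91 with RLE and 70 with library size alone, and those lower in nerve from 73 to 45 with library size alone and to 24 to 26 without a nerve library. The miR-219-5p-only row in brain ran from 0.00494 to 0.210 without 1 library, and in nerve it had adjusted p of 0.0711 (RLE), 0.161 (library size alone), 0.0999 (DESeq2), 0.0534 (no filter on low counts) and 0.201 to 0.307 (without 1 library).

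For tissue enrichment in brain, TMM-scaled library sizes gave folds of 3.27 for cfa-miR-338 and 4.59 for hsa-miR-338-5p, and a filter at 100 RPM left 76 miRNAs and dropped the miR-219-5p/miR-219b row, whose fold stayed 42.7. With medians cfa-miR-219-3p has no fold, since its median outside brain is 0. In nerve the count of 0 became 48 without brain (folds 17.6 and 87.5), 8 when p was adjusted over all tissues together (folds 11.6 and 32.2, both called, exact rank-sum test with adjusted p = 0.0101) and 5 with the other two-sided p, an alternative chosen after seeing the data (fold 32.2). No ratio of brain against nerve changed its side of the threshold, which that design cannot pass. Of the 3 most similar miRNAs, Spearman's rho shared 0 for cfa-miR-219-3p, 1 for the miR-219-5p-only row, 0 for the miR-219-5p/miR-219b row and 1 for cfa-miR-338, a pseudocount of 10 RPM shared 1 for cfa-miR-338 and 1 for hsa-miR-338-5p, and a minimum of 100 RPM shared 1 for cfa-miR-219-3p. Depth limits miR-219 in nerve, where 3 reads are worth 2.83 RPM, and the miR-219-5p rows in bone marrow.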
